A study of Mus musculus with 9 samples.

Results

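The 10 genes described here belong to the integrated stress response: the transcription factor gene Atf4 and 9 genes known as its targets or as parts of its feedback, Ddit3, Trib3, Chac1, Sesn2, Asns, Psat1, Phgdh, Slc3a2 and Ppp1r15a. They were chosen by their symbols, with earlier results of these data known. Each matched 1 row, and they make up 10 of the 24054 rows of the expression table. The cells were primary cortical neurons of wild-type C57BL/6 mice, cultured for 6 days, and poly(A)-selected RNA gave 9 libraries. In 3 libraries the neurons stayed in normal oxygen (normoxia), in 3 they spent 7 hours in 0.2% oxygen (hypoxia), and in 3 they spent the same time at that oxygen level while exposed to triiodothyronine, a thyroid hormone, at 10 nM (hypoxia with T3). Normoxic cells with the hormone were not among the groups, so T3 was seen in low oxygen alone. Libraries are named by the number of their column, normoxia 1 to 3, hypoxia 7 to 9 and T3 11 to 13.

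The integrated stress response is a brake on protein synthesis. Kinases that sense unfolded protein, missing amino acids, heme shortage or viral RNA phosphorylate the initiation factor eIF2, most translation slows, and the mRNA of Atf4 is translated better because of short upstream reading frames in its leader. ATF4 protein then binds DNA together with C/EBP family partners and switches on genes for amino acid synthesis and uptake, redox balance and feedback, and, when stress lasts, for cell death. In neurons the pathway is known for its part in injury, in synaptic plasticity and in white matter disease. The libraries measured mRNA, so neither eIF2 phosphorylation nor ATF4 protein was observed.

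Each value is a TMM-normalized CPM, the reads of a gene relative to the size of its library as scaled by the authors, and the reads behind a library ranged from 17182339 to 33937842. All 10 genes had whole-read values in every library. The test was limma on log2 of CPM plus 1, fitted over all 9 libraries and 12923 genes, with Benjamini-Hochberg adjustment over all of them and a threshold of 0.05. "Rose" and "fell" are used of genes past that threshold. Nothing in the labels tells whether replicate libraries stem from different cultures, so p-values measure only how far these libraries differ, and that spread may be technical. As checks of the labels, the hypoxia-induced genes Slc2a1, Pdk1, Bnip3 and Egln3 rose in hypoxia by 1.66 to 2.40 on the log2 scale. Hr, a direct T3 target with 1 hypoxia value that is not a whole number of reads, rose with T3 by 2.57. Summed neuron markers stood at 8674 to 9401 CPM in normoxia, 6910 to 7447 in hypoxia and 6858 to 6991 with T3. In hypoxia 1 of the 12 genes rose and 4 fell, where 14.3% and 19.3% of all genes did, with a median log2 change of -0.06. Most of the fall in the sum was that of Tubb3, from 2373 to 1104 and 701 CPM on average, and Nefl rose in both comparisons. The 8 microglia markers summed to at most 2.11 CPM and 8 endothelial and mural markers to at most 2.96 CPM. The ribosomal RNA precursor Rn45s took 3.25% to 4.21% of a normoxia column, 1.04% to 1.33% of a hypoxia column and 1.04% to 2.65% of a T3 column. On the first principal component hypoxia 9 (14.0) stood nearer to the T3 libraries (17.6 to 32.0) than hypoxia 7 and 8 did (2.9 and 2.5).

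In hypoxia 9 of the 10 genes rose and none fell. The largest increases were those of Trib3, Sesn2 and Ppp1r15a, and Phgdh alone did not pass. Over all genes tested, 14.3% rose in this comparison, 19.3% fell and 33.6% changed in either direction. The normoxia and hypoxia libraries did not overlap in the 9 genes that rose, where 20.7% of all genes had every hypoxia library above every normoxia library. The median log2 change of the 10 genes was 0.64, against 0.00 over all genes tested. With T3 added to hypoxia 5 of the 10 rose further, Atf4, Ddit3, Ppp1r15a, Sesn2 and Slc3a2, and none fell, where 2.73% of all genes rose, 3.75% fell and 6.48% changed. Every T3 library was above every hypoxia library in 7 of the 10 genes and in 15.8% of all genes. The median of the 10 genes was 0.28 there, against -0.01 over all genes. Trib3, Chac1, Asns, Psat1 and Phgdh did not pass with T3. Trib3 passed the filter on low values (more than 1 CPM in at least 3 libraries) through the hypoxic groups, since 2 of its normoxia libraries were above 1 CPM. Both comparisons use the same 3 hypoxia libraries.

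**Figure D1:**
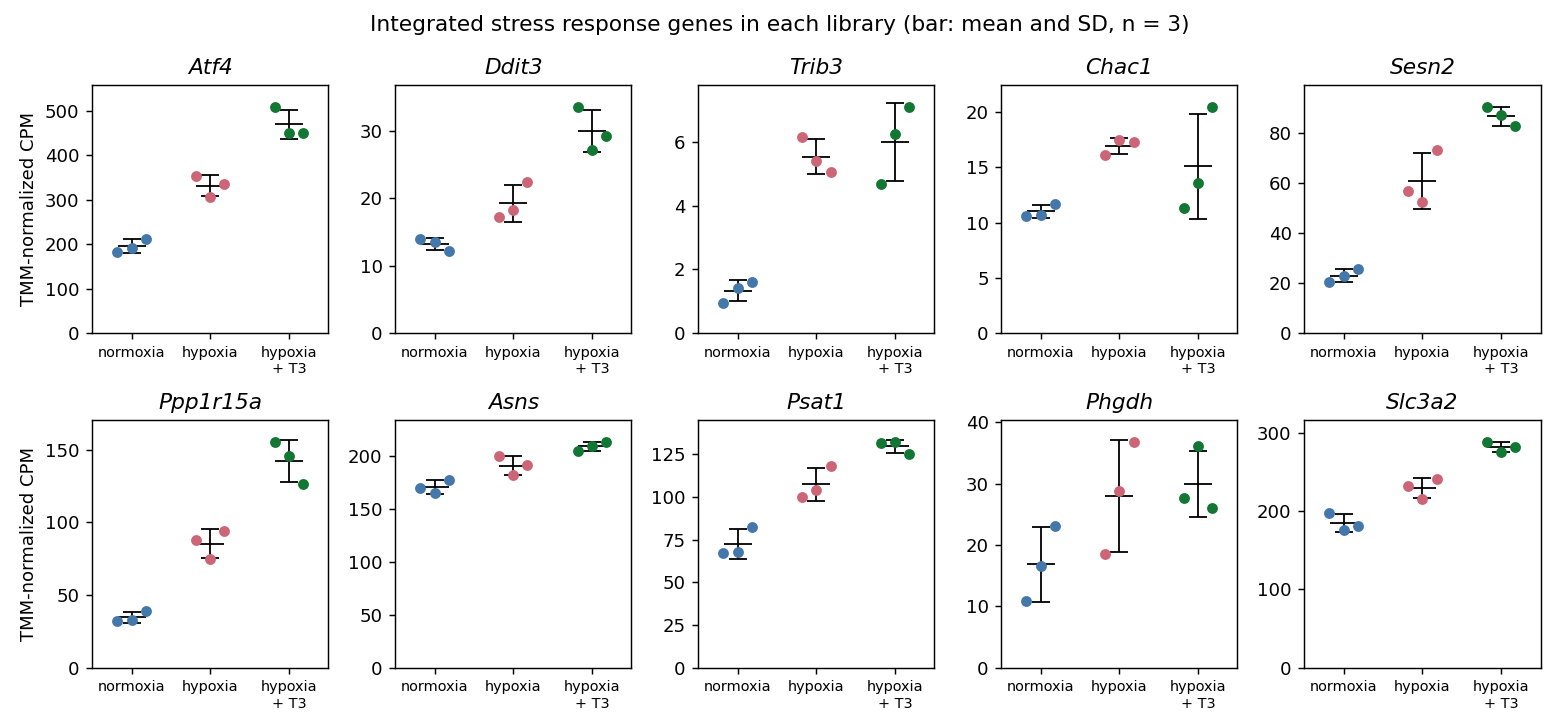
TMM-normalized CPM (y axis, from 0) of each of the 10 genes in the 3 normoxia, 3 hypoxia and 3 hypoxia with T3 libraries (points, in order of library number), with the mean and SD of each group (black bars). Atf4 rose between groups without overlap, from 183 to 212 CPM in normoxia over 305 to 353 CPM in hypoxia to 450 to 507 CPM with T3, while the Chac1 values with T3 spread from 11.3 to 20.4 CPM.

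Atf4, at chr15:80255184-80257545 (mm10, plus strand), rose in both comparisons. Its values were 183, 191 and 212 CPM in normoxia, 353, 305 and 335 CPM in hypoxia, and 507, 450 and 450 CPM with T3. Every hypoxia library was above every normoxia library, and every T3 library above every hypoxia library. Group means were 195 ± 15, 331 ± 24.1 and 469 ± 32.7 CPM (SD, n = 3 each). On the log2 scale it rose by 0.76 in hypoxia (SE 0.07, limma adjusted p = 6.2e-05) and by a further 0.50 with T3 (SE 0.07, adjusted p = 0.01). With T3 against normoxia the change was 1.26 (adjusted p = 5.9e-07). The call with T3 was lost without hypoxia 8 (log2 change 0.44, adjusted p = 0.051).

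Ddit3, which encodes the pro-apoptotic factor CHOP, lies at chr10:127290793-127296291 (plus strand). It stood at 13.9, 13.6 and 12.2 CPM in normoxia, 17.2, 18.2 and 22.4 CPM in hypoxia, and 33.5, 27.2 and 29.3 CPM with T3. The 3 groups did not overlap. The log2 change was 0.50 in hypoxia (SE 0.11, adjusted p = 0.0058) and 0.62 with T3 (SE 0.11, adjusted p = 0.019). The T3 call was lost without hypoxia 7, hypoxia 8, T3 11 or T3 12 (adjusted p = 0.065, 0.089, 0.085 and 0.063), with log2 changes of 0.54 to 0.68. Exons of Ddit3 overlap those of Mars, a tRNA synthetase gene on the other strand, which stood at 81.8 to 87.2 CPM in normoxia, 91.3 to 98.8 in hypoxia and 101 to 102 with T3. The libraries were made with a stranded method, per the labels, and whether counting used the strand is not given in the sources used here.

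Trib3, a pseudokinase that binds ATF4 and dampens it, lies at chr2:152337425-152344060 (minus strand) and was low in every library. It stood at 0.957, 1.42 and 1.61 CPM in normoxia (23, 47 and 45 reads), 6.16, 5.41 and 5.08 CPM in hypoxia and 4.69, 6.25 and 7.10 CPM with T3. All 6 hypoxic libraries were above all normoxic ones, and the hypoxia and T3 values overlapped. The increase in hypoxia was 1.50 on the log2 scale of CPM plus 1 (SE 0.16, adjusted p = 0.00011), and its size moved with the added constant, to 2.06 with 0.1 and 0.74 with 5. With T3 the difference from hypoxia was 0.09 (unadjusted 95% interval -0.26 to 0.44, adjusted p = 0.77).

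Chac1, which degrades glutathione and lies at chr2:119351242-119354326 (plus strand), stood at 10.6, 10.7 and 11.7 CPM in normoxia and 16.1, 17.5 and 17.3 CPM in hypoxia. These groups did not overlap, and the change was 0.58 (SE 0.16, adjusted p = 0.019). The call was lost without normoxia 1 or 2 or hypoxia 8 or 9 (adjusted p = 0.055, 0.054, 0.052 and 0.056). With T3 the 3 libraries stood at 11.3, 13.6 and 20.4 CPM, below, below and above every hypoxia library. The difference from hypoxia was -0.20 (95% interval -0.55 to 0.16, adjusted p = 0.47), and it rested on single T3 libraries, at -0.022 without T3 11 (adjusted p = 0.96) and at -0.42, past the threshold, without T3 13 (adjusted p = 0.028). Against normoxia the T3 libraries gave 0.38 (adjusted p = 0.065), with 0.16 without T3 13 (adjusted p = 0.24) and 0.56 without T3 11 (adjusted p = 0.01). This difference also passed by edgeR (adjusted p = 0.039) and DESeq2 (0.025), with quantile normalization (0.039), equal column sums (0.035) and library weights (0.043).

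Sesn2 encodes sestrin 2, which restrains mTORC1 when leucine is short, and lies at chr4:132492804-132510456 (minus strand). It stood at 20.4, 22.8 and 25.7 CPM in normoxia, 56.7, 52.3 and 73.4 CPM in hypoxia, and 90.2, 87.1 and 82.6 CPM with T3. The groups did not overlap, and hypoxia 9 was the hypoxia library closest to those with T3. The change was 1.36 in hypoxia (SE 0.12, adjusted p = 2.8e-05) and 0.52 with T3 (SE 0.12, adjusted p = 0.033). The T3 call was lost without hypoxia 7 or 8 or T3 11 or 12 (adjusted p = 0.092, 0.14, 0.13 and 0.11), with no filter on low values (0.069), with only the 2 groups fitted (0.05) and without a variance trend (0.068).

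Ppp1r15a encodes GADD34, which brings protein phosphatase 1 to eIF2 and so reverses the block on translation. It lies at chr7:45522917-45526268 (minus strand). Its values were 32.0, 32.7 and 39.1 CPM in normoxia, 87.8, 74.6 and 94.0 CPM in hypoxia, and 155, 146 and 127 CPM with T3. The 3 groups did not overlap. Group means were 34.6 ± 3.93, 85.5 ± 9.89 and 143 ± 14.4 CPM (SD, n = 3 each). Hypoxia raised the log2 value by 1.28 (SE 0.10, adjusted p = 2.2e-05) and T3 by a further 0.73 (SE 0.10, adjusted p = 0.0094). With T3 against normoxia the change was 2.01 (adjusted p = 2.3e-07). The T3 call was lost without T3 12 (0.71, adjusted p = 0.056). Exons of Ppp1r15a overlap Tulp2 on the other strand, which stood at no more than 0.178 CPM in any library.

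**Figure D2:**
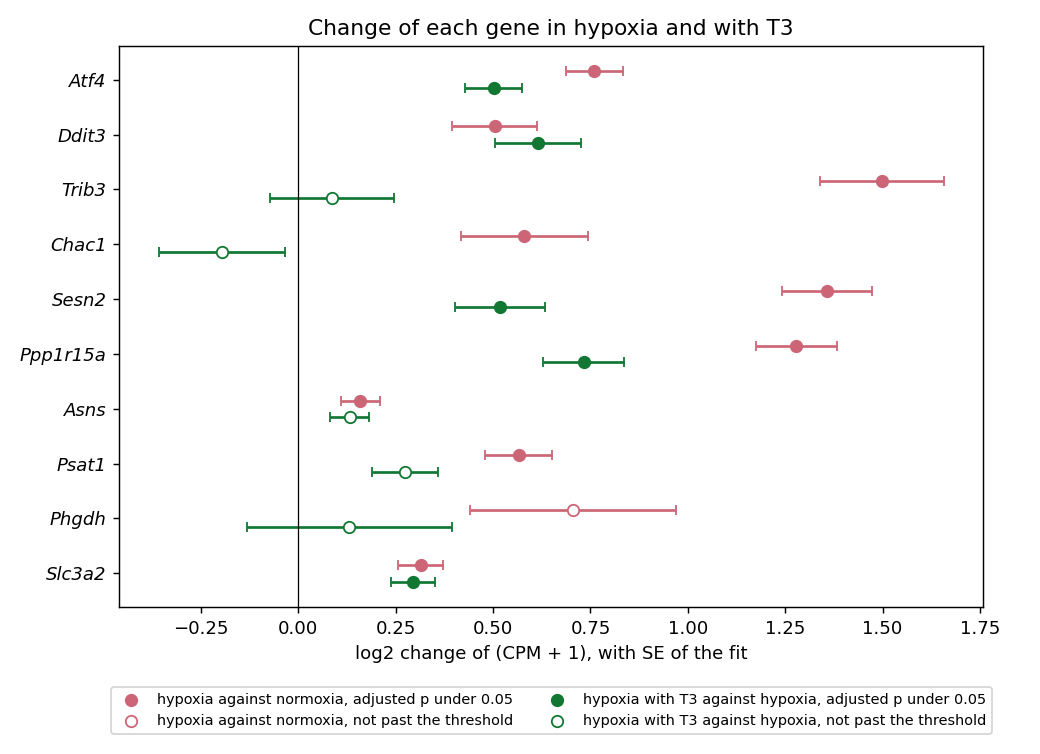
Log2 change of CPM plus 1 (x axis, bars give the SE of the fit) for each of the 10 genes in hypoxia against normoxia (red) and in hypoxia with T3 against hypoxia (green), with filled points past an adjusted p of 0.05. Hypoxia changes run from 0.16 in Asns to 1.50 in Trib3, and T3 changes from -0.20 in Chac1 to 0.73 in Ppp1r15a.

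The remaining 4 genes serve amino acid supply. Slc3a2, the heavy chain shared by several amino acid exchangers (chr19:8706882-8723369, minus strand), stood at 197, 176 and 181 CPM in normoxia, 232, 216 and 241 CPM in hypoxia, and 288, 275 and 282 CPM with T3. The steps were small and the groups did not overlap. The change was 0.31 in hypoxia (SE 0.06, adjusted p = 0.0023) and 0.29 with T3 (SE 0.06, adjusted p = 0.023), a call lost without hypoxia 7 or 8 or T3 11 or 12 (adjusted p = 0.067, 0.11, 0.1 and 0.08), without the filter on low values (0.051) and without a variance trend (0.061). Asns, asparagine synthetase (chr6:7675165-7693209, minus strand), stood at 170, 165 and 178 CPM in normoxia, 200, 182 and 191 CPM in hypoxia, and 205, 210 and 213 CPM with T3. Its groups did not overlap either, and its change was the smallest of the 10 in hypoxia, 0.16 (SE 0.05, adjusted p = 0.032). That call was lost in 7 of 22 alternative fits, those without normoxia 1 or 2, hypoxia 7 or 9 or T3 12 (adjusted p = 0.068, 0.1, 0.11, 0.079 and 0.052), with only the 2 groups fitted (0.055) and without a variance trend (0.071). With T3 the difference was 0.13 (95% interval 0.02 to 0.24, adjusted p = 0.12).

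Phgdh (chr3:98313171-98339969, minus strand) and Psat1 (chr19:15905123-15925059, minus strand) encode the enzymes of the opening steps of serine synthesis, a route known to be much more active in astrocytes and neural progenitors than in neurons. Psat1 stood at 67.0, 67.7 and 82.3 CPM in normoxia, 99.8, 104 and 118 CPM in hypoxia, and 132, 132 and 125 CPM with T3. Its groups did not overlap. It rose by 0.57 in hypoxia (SE 0.09, adjusted p = 0.00083), and the difference with T3 was 0.27 (95% interval 0.09 to 0.46, adjusted p = 0.07). The T3 difference passed by DESeq2 (adjusted p = 0.031), with library weights (0.013), without normoxia 3 (0.045) and without hypoxia 9 (0.044). Phgdh stood at 10.9, 16.6 and 23.1 CPM in normoxia, 18.5, 28.8 and 36.7 CPM in hypoxia, and 27.7, 36.1 and 26.0 CPM with T3. Here normoxia and hypoxia overlapped, hypoxia 7 lying below normoxia 3. The difference in hypoxia was 0.70 (SE 0.26, adjusted p = 0.06), and single libraries moved it both ways. Without normoxia 1 it was 0.44 and without hypoxia 9 it was 0.49 (adjusted p = 0.22 each), while it passed without normoxia 3 (0.95, adjusted p = 0.02), without hypoxia 7 (0.97, adjusted p = 0.018) and with equal column sums (0.84, adjusted p = 0.035). With T3 it was 0.13 (95% interval -0.45 to 0.71, adjusted p = 0.8). Against normoxia the T3 libraries were higher by 0.84 (adjusted p = 0.019), a call lost without normoxia 1 (0.57, adjusted p = 0.08) or T3 12 (0.70, adjusted p = 0.077).

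Markers of astrocytes and progenitors moved with these libraries. The 12 astrocyte markers summed to 296, 296 and 411 CPM in normoxia, 348, 451 and 594 CPM in hypoxia, and 501, 599 and 451 CPM with T3. Of the 10 that passed the filter, 2 rose in hypoxia, Aldoc (1.94, adjusted p = 0.031) and Glul (0.56, adjusted p = 0.0099), where 14.3% of all genes did. Gjb6 was at 0 in 8 libraries. The 10 progenitor and cell cycle markers summed to 65.4, 132 and 266 CPM in normoxia, 132, 309 and 403 CPM in hypoxia, and 232, 374 and 199 CPM with T3, and none of them passed in hypoxia. Oligodendrocyte lineage markers, of which 1 of 8, Mbp, rose in hypoxia, summed to 41.0 to 144 CPM in normoxia, 79.7 to 213 in hypoxia and 133 to 189 with T3. Past the threshold or not, all 10 tested astrocyte, all 10 progenitor and all 8 oligodendrocyte markers had positive changes in hypoxia. The median log2 changes of these lists were 0.93, 0.67 and 0.97, against 0.64 for the 10 genes. With T3 against hypoxia the medians were 0.10, 0.07 and 0.02, against 0.28. Within each group the order of the libraries by Phgdh was the order by both the astrocyte and the progenitor sums. In bulk samples more cells of a type and more RNA per cell cannot be told apart. The part of these cells in the values of the 10 genes, Phgdh and Psat1 among them, was not tested.

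**Figure D3:**
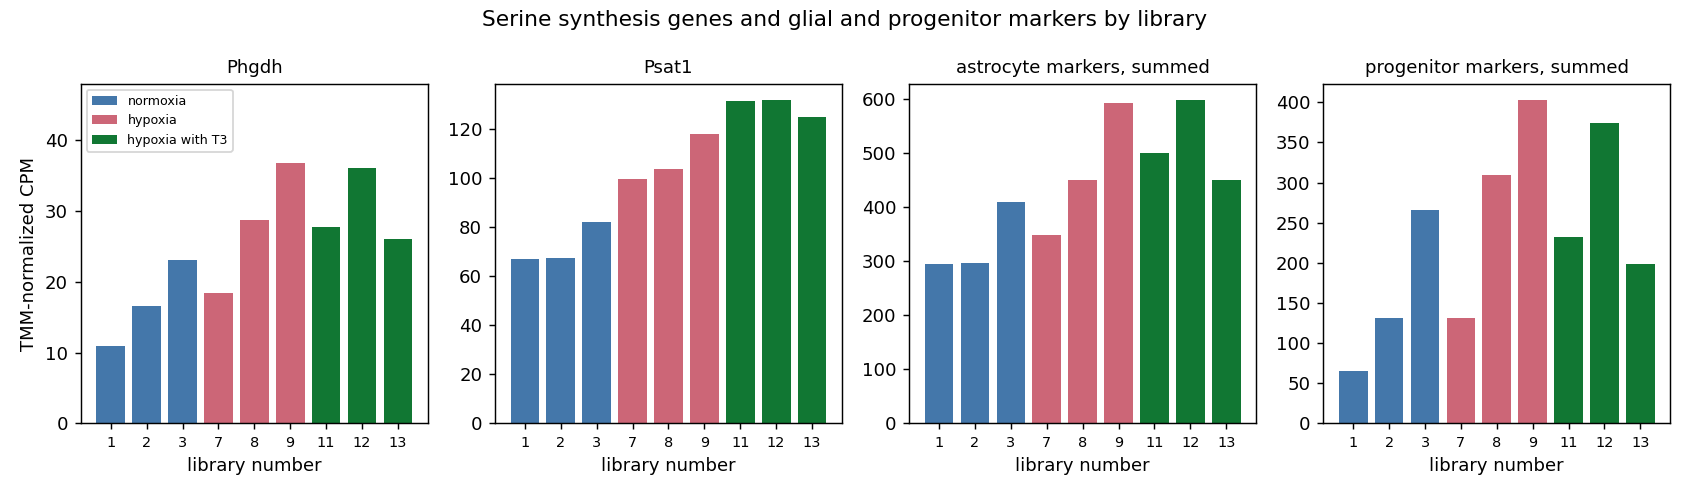
TMM-normalized CPM (y axis, from 0) in each library (x axis, library number, bars coloured by group) of Phgdh, of Psat1, of 12 summed astrocyte markers and of 10 summed progenitor and cell cycle markers. Phgdh and both marker sums were highest in library 3 of normoxia, 9 of hypoxia and 12 of hypoxia with T3.

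The stretches around the starts of the genes were searched for a short list of known motifs. RefSeq (GRCm38.p6, the assembly of mm10) gave a promoter for all 10 genes, 250 bases before to 50 after the start, with 2 starts for Psat1 and, for Slc3a2, a start inside the gene span given above rather than at its end. The letters TGATGNAA, the core of the element that ATF4 and C/EBP proteins bind together, were looked for on both strands. They occurred in Asns, Chac1 and Trib3, 3 of 10 genes, against 3.97% of all 32851 promoters. Asns holds TGATGAAA from position -23 to -16. Chac1 has it on the reverse strand, read here as TTGCATCA, from -193 to -186, and Trib3 likewise as TTACATCA, just after its start, from 15 to 22. The 3 genes are printed 5′ to 3′ on the strand of the gene with the match in capitals, the first 2 over the 250 bases before the start and Trib3 over 30 bases around the match, at chr2:119350992-119351241, chr6:7693210-7693459 and chr2:152344028-152344057.
Chac1: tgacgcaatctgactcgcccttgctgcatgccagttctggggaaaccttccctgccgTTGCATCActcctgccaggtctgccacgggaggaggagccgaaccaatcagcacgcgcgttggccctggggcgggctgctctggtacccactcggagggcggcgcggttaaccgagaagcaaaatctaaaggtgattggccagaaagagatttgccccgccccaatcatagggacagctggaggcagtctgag
Asns: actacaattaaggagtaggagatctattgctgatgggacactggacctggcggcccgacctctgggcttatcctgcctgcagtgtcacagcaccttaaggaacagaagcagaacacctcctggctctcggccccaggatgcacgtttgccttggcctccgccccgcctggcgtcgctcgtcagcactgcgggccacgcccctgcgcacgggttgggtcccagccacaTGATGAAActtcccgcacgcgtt
Trib3: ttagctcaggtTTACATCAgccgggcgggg
These are the genes whose T3 changes did not pass, together with Psat1 and Phgdh. None of the 5 genes that rose with T3 holds these letters in this window, which says nothing of sites elsewhere. Other letters that ATF4 may bind were not searched for, so the window may hold such sites, in Ppp1r15a and the others alike. The split by T3 call is not firm. Each of those 5 calls was lost in some alternative fits, and Asns passed with library weights (limma adjusted p = 0.04). A link between these letters and T3 was not tested. The endoplasmic reticulum stress element, CCAAT and CCACG with 9 bases between them, which answers unfolded protein, was in none of the 10 and in 0.119% of all promoters. The short cores of the hypoxia response element are common: ACGTG was in 5 of the 10 and in 19.6% of all promoters, and GCGTG in 8 and in 32.4%. The 10 are counted by gene and the shares by promoter, and Psat1 holds ACGTG in only 1 of its 2 promoters. Ppp1r15a, which rose most with T3, carries ACGTG from -201 to -197 and from -160 to -156 and GCGTG on the reverse strand from -124 to -120, in capitals in its 250 bases before the start (chr7:45526269-45526518, minus strand). A further GCGTG, from 26 to 30, lies after the start.
Ppp1r15a: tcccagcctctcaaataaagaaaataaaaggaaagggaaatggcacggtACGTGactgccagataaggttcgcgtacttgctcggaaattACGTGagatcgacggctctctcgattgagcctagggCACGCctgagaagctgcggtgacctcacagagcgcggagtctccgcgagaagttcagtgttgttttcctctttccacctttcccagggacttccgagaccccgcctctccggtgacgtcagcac
A match describes the letters and not a bound site, and no binding was measured.

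The rest of the pathway was taken as 69 other genes with a row in the table, in 6 roles, of which 64 passed the filter on low values. This list too was made with earlier results of these data known. In hypoxia 31 of the 64 rose and 3 fell, where 14.3% and 19.3% of all genes did, with a median log2 change of 0.24 against 0.00 over all genes tested. With equal column sums in place of the authors' scaling the median of all genes moved to 0.13. In that setting 45 of the 64 rose and none fell, where 3973 and 1232 of all 12923 genes did. Changes near 0.13 thus depend on the scaling. With T3 added 10 of the 64 rose and none fell, where 2.73% and 3.75% of all genes did, with a median of 0.12. That count was 2, 0, 1 and 0 without hypoxia 7, hypoxia 8, T3 11 and T3 12, and 16 without hypoxia 9. Without hypoxia 8 or T3 12 1 of the 10 genes passed with T3, and without hypoxia 7 or T3 11 there were 2. Calls over all 12923 genes fell alike, from 838 to 88, 43, 46 and 31 without hypoxia 7, hypoxia 8, T3 11 and T3 12. The 5 genes that did not pass the filter were Cebpd, Nupr1, Gdf15, Fgf21 and Adm2.

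**Figure D4:**
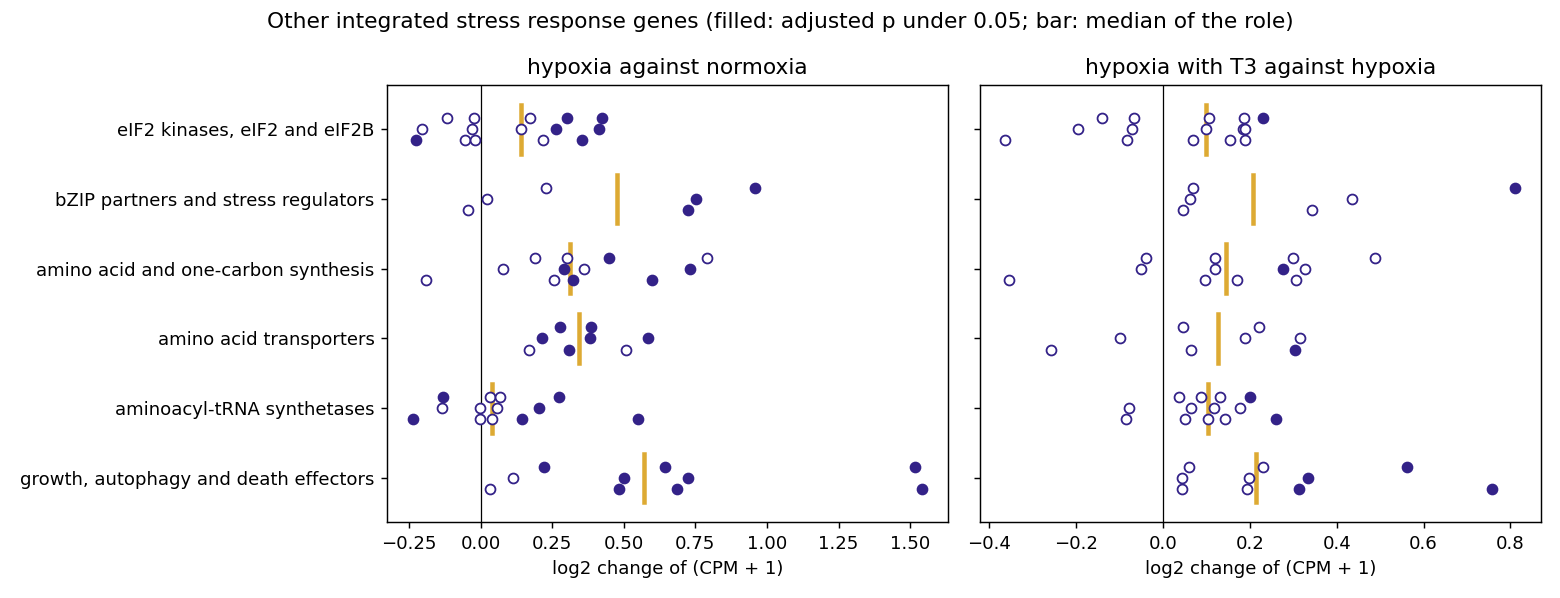
Log2 change of CPM plus 1 (x axis) of the 64 other pathway genes by role, in hypoxia against normoxia (left) and hypoxia with T3 against hypoxia (right), with filled points past an adjusted p of 0.05 and a vertical bar at the median of each role. The medians in hypoxia run from 0.04 in the aminoacyl-tRNA synthetases to 0.57 in the growth, autophagy and death effectors.

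Among the partners and regulators, 3 of 6 rose in hypoxia and none fell, where 14.3% and 19.3% of all genes did. Atf3, a stress-induced repressor of the same family, stood at 2.29, 2.14 and 2.39 CPM in normoxia, 5.59, 4.28 and 6.37 CPM in hypoxia, and 10.4, 9.35 and 10.7 CPM with T3. The groups did not overlap, with changes of 0.96 in hypoxia (adjusted p = 0.00049) and 0.81 with T3 (adjusted p = 0.013). Atf5, whose mRNA is translated under stress like that of Atf4, rose from 49.5 ± 1.92 to 83.0 ± 14.4 CPM in hypoxia (log2 change 0.72, adjusted p = 0.00044), and stood at 105 ± 3.24 CPM with T3 (0.34, adjusted p = 0.054). Cebpb, a dimer partner of ATF4, rose by 0.75 in hypoxia (adjusted p = 0.0034) and was at 0.43 with T3 (adjusted p = 0.09).

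Of 15 genes of eIF2, its kinases, its exchange factor and their regulators (among these Ppp1r15b, Oma1 and Gcn1l1), 5 rose in hypoxia and 1 fell. By direction 14.3% of all genes rose and 19.3% fell. The share of the 15 that passed in either direction was near the 33.6% of all genes. Eif2ak3, the kinase PERK that senses unfolded protein, rose by 0.35 (adjusted p = 0.0033), Eif2s2, the beta subunit of eIF2, by 0.30 (adjusted p = 0.003), and Ppp1r15b, which encodes CReP, the constitutive counterpart of GADD34, by 0.42 (adjusted p = 0.00097). Eif2b4, a subunit of the exchange factor eIF2B, rose by 0.26 in hypoxia and again by 0.23 with T3 (adjusted p = 0.0053 and 0.04), the 1 gene of this role to pass with T3. Eif2ak2, the kinase PKR that senses double-stranded RNA, rose by 0.41 (adjusted p = 0.025), and it and Gcn1l1 are named after their values were seen. Gcn1l1 helps to activate the amino acid sensor GCN2, and it fell by 0.22 in hypoxia (adjusted p = 0.0058).

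Of 12 genes of amino acid and folate-dependent synthesis 5 rose in hypoxia and none fell, where 14.3% and 19.3% of all genes did. In either direction 33.6% of all genes passed. Mthfd2, a mitochondrial folate enzyme, stood at 18.7, 20.9 and 21.9 CPM in normoxia, 33.6, 32.5 and 38.0 CPM in hypoxia, and 41.9, 42.3 and 44.1 CPM with T3. Its groups did not overlap, and its change was 0.73 in hypoxia (adjusted p = 0.00014) and 0.30 with T3 (adjusted p = 0.051). Psph, which completes serine synthesis after Phgdh and Psat1, rose by 0.60 in hypoxia (adjusted p = 0.0076) and was at 0.49 with T3 (adjusted p = 0.054). Aldh18a1, for proline, rose by 0.32 and the mitochondrial folate enzyme Aldh1l2 by 0.29 in hypoxia (adjusted p = 0.0059 and 0.0051), as did, named after its values were seen, the mitochondrial serine hydroxymethyltransferase Shmt2 by 0.45 (adjusted p = 0.012). Got1, the cytosolic aspartate aminotransferase, was at 0.08 in hypoxia (adjusted p = 0.35) and rose by 0.28 with T3 (adjusted p = 0.032).

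Of 8 amino acid transporters 6 rose in hypoxia and none fell, where 14.3% and 19.3% of all genes did. Slc7a3, a carrier of basic amino acids, rose by 0.59 (adjusted p = 0.004), Slc7a1, a carrier of the same class, by 0.38 (adjusted p = 0.0094), the glycine carrier Slc6a9 by 0.31 (adjusted p = 0.014) and the neutral amino acid carrier Slc1a4 by 0.22 (adjusted p = 0.0097). Slc38a2, which takes up glutamine and other small neutral amino acids, rose by 0.28 in hypoxia (adjusted p = 0.016) and by 0.30 with T3 (adjusted p = 0.04), the 1 transporter of this list to pass with the hormone. Slc7a3 and Slc7a1 were at -0.10 and 0.06 with T3 (adjusted p = 0.63 and 0.7).

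Of 13 genes of tRNA charging and export 4 rose and 2 fell in hypoxia, where 14.3% and 19.3% of all genes did, and the median was 0.04. Tars, for threonine, rose from 54.3 ± 0.637 to 80.1 ± 6.29 CPM (log2 change 0.55, adjusted p = 0.00015), Iars, for isoleucine, by 0.27 (adjusted p = 0.0076) and Nars, for asparagine, by 0.20 (adjusted p = 0.015). Mars, for methionine, the gene that overlaps Ddit3, rose by 0.15 (adjusted p = 0.047). Lars, for leucine, fell by 0.24 (adjusted p = 0.0086) and Eprs, named after its values were seen, fell by 0.13 (adjusted p = 0.036). The number of the 64 genes that fell in hypoxia was 3 with median-of-ratios scaling and by DESeq2, 2 by edgeR, 1 with quantile normalization and 0 with equal column sums. Over all genes tested 2482, 2429, 2324, 2128 and 1232 fell in these settings, in that order. In all 6 of the 13 passed in hypoxia, where 33.6% of all genes did. With T3 Aars, for alanine, rose by 0.26 (adjusted p = 0.026) and Yars, for tyrosine, by 0.20 (adjusted p = 0.047).

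The effectors of growth arrest, autophagy and death held the largest changes in hypoxia among the 64 genes. Of 10 tested, 8 rose in hypoxia, where 14.3% of all genes did, and 4 with T3, where 2.73% did. None of the 10 fell in either comparison. Stc2, a secreted glycoprotein, stood at 8.62, 9.18 and 11.0 CPM in normoxia, 25.6, 29.4 and 35.0 CPM in hypoxia, and 46.8, 55.4 and 51.2 CPM with T3, with changes of 1.54 (adjusted p = 1.6e-05) and 0.76 (adjusted p = 0.013). Ddit4, the mTORC1 inhibitor REDD1, rose from 74.1 ± 1.89 to 214 ± 19.1 CPM in hypoxia (1.52, adjusted p = 2.7e-07) and to 270 ± 20.9 CPM with T3 (0.33, adjusted p = 0.032). Both are also known targets of the hypoxia-inducible factors. Cdkn1a, the cell cycle inhibitor p21, rose by 0.64 and 0.31 (adjusted p = 5.5e-05 and 0.023). Vldlr, a lipoprotein and reelin receptor, rose by 0.50 in hypoxia (adjusted p = 0.00086). Pmaip1, the pro-apoptotic protein NOXA, was at 0.03 in hypoxia (adjusted p = 0.82) and rose by 0.56 with T3 (adjusted p = 0.019).

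The branch of the unfolded protein response run by ATF6 and XBP1 was set beside these genes. Of 16 chaperone and sensor genes 3 rose and 2 fell in hypoxia, and 1 rose and 1 fell with T3, with medians of 0.00 and -0.10. The 5 of 16 that passed in hypoxia are near the 33.6% of all genes that did. With T3 2.73% of all genes rose and 3.75% fell. In hypoxia Herpud1, Dnajb9 and Hsp90b1 rose and Pdia6 and Atf6 fell. Herpud1, which serves degradation of proteins from the endoplasmic reticulum and is also known as an ATF4 target, was the 1 that rose with T3. It changed by 0.86 and 0.51 (adjusted p = 0.00014 and 0.02). Atf6 itself fell by 0.26 in hypoxia and by 0.41 with T3 (adjusted p = 0.04 and 0.03). Hspa5, the chaperone BiP, was at 0.02 in hypoxia and 0.22 with T3 (adjusted p = 0.86 and 0.066).

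The genes most like Atf4 over the 9 libraries were found by the root mean square difference of log2 profiles, each set to its own normoxia mean. Outside the 10 genes the closest were Creg1 (0.08), Foxj1 (0.10), Errfi1 (0.11), Fdxr (0.11) and Herpud1 (0.13). Their changes, which this choice largely fixed, were 0.68 to 0.86 in hypoxia and 0.34 to 0.67 with T3. Of the 10 genes, Ddit3 (0.22, rank 108 among all genes) and Psat1 (0.28, rank 203) lay closest to Atf4 and Asns (0.66, rank 2806) lay farthest, so many genes outside the 10 were closer. The measure is a description over libraries that share the 3 groups.

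Against normoxia the T3 libraries were higher for 9 of the 10 genes, where 25.5% of all genes tested rose, 29.5% fell and 55.1% changed, and for 42 of the 64 others, with 3 lower. The same 9 genes had every T3 library above every normoxia library, which held for 29.8% of all genes. The median of the 10 genes was 0.98. The changes ran from 0.29 in Asns (adjusted p = 0.0006) to 2.01 in Ppp1r15a, with Sesn2 at 1.87, Trib3 at 1.59, Ddit3 at 1.12, Psat1 at 0.84 and Slc3a2 at 0.61. Chac1 was the gene that did not pass. Among the 64 others, Cth rose by 0.53 (limma adjusted p = 0.008) and passed the filter on low values through the hypoxic groups. It was above 1 CPM in 1 normoxia library.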

How the data were processed

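The deposited table holds TMM-normalized CPM, a scaled signal made by the authors from gene counts, 1 column per library. The submitters' processing notes name RSEM 1.2.15 with Bowtie2 2.1.0, the mm10 build and edgeR, the last with no version. Annotation and filters are not given in the sources used here. The columns sum to 945822 to 1091200, and 99.89% to 100.00% of values are whole multiples of 1 read within 0.01 reads, from which reads per library were recovered. In 35 rows some values were not whole, none of them in the 10 genes. 1 further column without a name was not used.

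Libraries were grouped by their column names. The 12923 genes above 1 CPM in 3 or more libraries were fitted in R 4.3.3 with limma 3.58.1 (two-sided, eBayes with a trend) on log2 of the value plus 1, in all 9 libraries. Alternatives used other pseudocounts, filters, scalings, weights and fits, count tests on the recovered reads of 12888 genes (DESeq2 1.42.0 and the quasi-likelihood test of edgeR 4.0.16), and each library left out. Leaving out the 35 rows was added after seeing the data. The method was tested on simulated data. The members, gene lists and motifs were chosen with earlier results of these data known. Named genes are the 10 members, of each role up to 4 genes with the smallest adjusted p in hypoxia and up to 2 with T3, the 5 genes most like Atf4, and checks of the labels. A few of these are not described.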

Additional observations from a re-analysis of the deposited data

How the results depend on the processing

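No paired analysis was possible because columns 7 to 9 and 11 to 13 carry no number that a sample title gives, so the planned replicate block was not run. Of 23 calls on the 10 genes in the 3 comparisons, 15 held in every alternative, and the lost calls are given beside each gene. All 15 were calls of hypoxia or of hypoxia with T3 against normoxia. Each of the 5 calls with T3 against hypoxia was lost in some of the 22 alternatives. That was 1 for Atf4, 1 for Ppp1r15a, 4 for Ddit3, 6 for Slc3a2 and 7 for Sesn2. In the alternatives that left out 1 library, the genes of the 10 that passed numbered 7 to 10 of a main 9 in hypoxia, 1 to 6 of a main 5 with T3 and 8 to 10 of a main 9 with T3 against normoxia, and of the other 64 genes 27 to 33 of 34, 0 to 16 of 10 and 43 to 46 of 45. With T3 the 10 genes gave 3 calls without the filter and 3 without a variance trend. The others gave 4 without the filter, 4 with only the 2 groups, 3 without a trend, 25 with library weights and 20 by DESeq2. Calls over all genes moved the same way in these 5 settings, from 838 to 172, 275, 234, 3050 and 1728. Leaving out libraries turned the sign of small T3 differences that were past no threshold, with ranges of -0.025 to 0.23 for Trib3, -0.13 to 0.35 for Phgdh, -0.095 to 0.00996 for Aldh1l2, -0.062 to 0.37 for Egln3, -0.038 to 0.16 for Jdp2, -0.028 to 0.11 for Slc6a9, -0.0043 to 0.17 for Slc7a1 and -0.0099 to 0.12 for Vldlr, and for Pmaip1 in hypoxia -0.026 to 0.12. The cause was not tested. Depth limits Trib3 most, at 23 to 47 reads in the normoxia libraries.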
